A study of Heterocephalus glaber with 215 samples.

Results

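Prolactin and the dopamine D2 receptor were followed through 10 tissues of breeding and non-breeding naked mole-rats, eusocial rodents whose colonies are made up mainly of animals that do not reproduce. The genes were chosen by name, as prolactin (PRL), its receptor (PRLR) and the dopamine receptor that restrains prolactin release (DRD2). PRL and DRD2 are 2 of the 16339 genes of the count table, and PRLR was not analysed here. The 24 animals were 6 female breeders (BF), 6 female non-breeders (NF), 6 male breeders (BM) and 6 male non-breeders (NM), and each animal is named by its class and number. All were kept in captivity, and their ages were 3.3 to 3.7 years in BF, 2.4 to 4 in NF, 2.8 to 4.1 in BM and 2.7 to 4.1 in NM. Breeders had left the colony of their birth to be paired with an unrelated partner, and the non-breeders were litter siblings that stayed behind, so the effects of breeding and of leaving the colony cannot be told apart. The study took its breeding males shortly after the birth of a litter and its breeding females some weeks on, after lactation had ended and without their mates. Among breeders, then, sex and stage of sampling cannot be told apart.

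Prolactin is made by the lactotrophs of the anterior pituitary. It drives milk production, takes part in parental care and, when high, restrains the gonadotropin axis. Lactotrophs release the hormone unless they are held back, and the brake is dopamine, which neurons of the hypothalamus deliver to the pituitary and which acts through DRD2, a receptor coupled to inhibitory G proteins. DRD2 is also present on the melanotrophs of the intermediate lobe and on many neurons. The transcription factor POU1F1 specifies lactotrophs, the growth hormone cells (somatotrophs) and thyrotrophs, and estrogen acting through ESR1 raises prolactin transcription in laboratory rodents.

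Library totals ran from 9553515 to 20099804 counts over the 213 libraries used, and from 11203235 to 19050150 in pituitary. The pituitary libraries of NF_2969 and NF_3605 stood apart: their median correlation with the other pituitary libraries was 0.907 and 0.902, against 0.966 to 0.983 in the other 22. Summed somatotroph markers, of which growth hormone (GH1) is the bulk, reached 430746 and 504907 counts per megaread (CPM) there, against 75035 to 308489 elsewhere. Pituitary markers were high in every pituitary library, with GH1 taking 8.61% to 36.0% of all counts. Results that rest on these libraries are given with and without them. Since these are whole tissues, a change in the number of cells of a type and a change in RNA per cell cannot be told apart.

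PRL was abundant in all 24 pituitaries, at 35119 to 342437 reads a library or 0.303% to 2.22% of counts, and it was lower in females than in males of either status without passing the threshold. In female breeders PRL lay between 2927 and 7206 CPM with a median of 5129 (mean 5094 ± 1549, SD, n = 6). In female non-breeders it lay between 3212 and 10099 CPM with a median of 4216 (5783 ± 2884). The female groups overlapped in part, with BF_6382 below every non-breeder, and 4 of the 6 non-breeders lay between 3212 and 4242 CPM while NF_3439 and NF_0525 stood above every female breeder at 10099 and 8766. Male breeders ranged from 5813 to 23508 CPM with a median of 9774 (11506 ± 6251). Male non-breeders ranged from 5043 to 12693 CPM with a median of 7792 (8413 ± 2567). The male groups overlapped as well, except for BM_1215, whose 23508 CPM was the highest value of all.

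**Figure D1:**
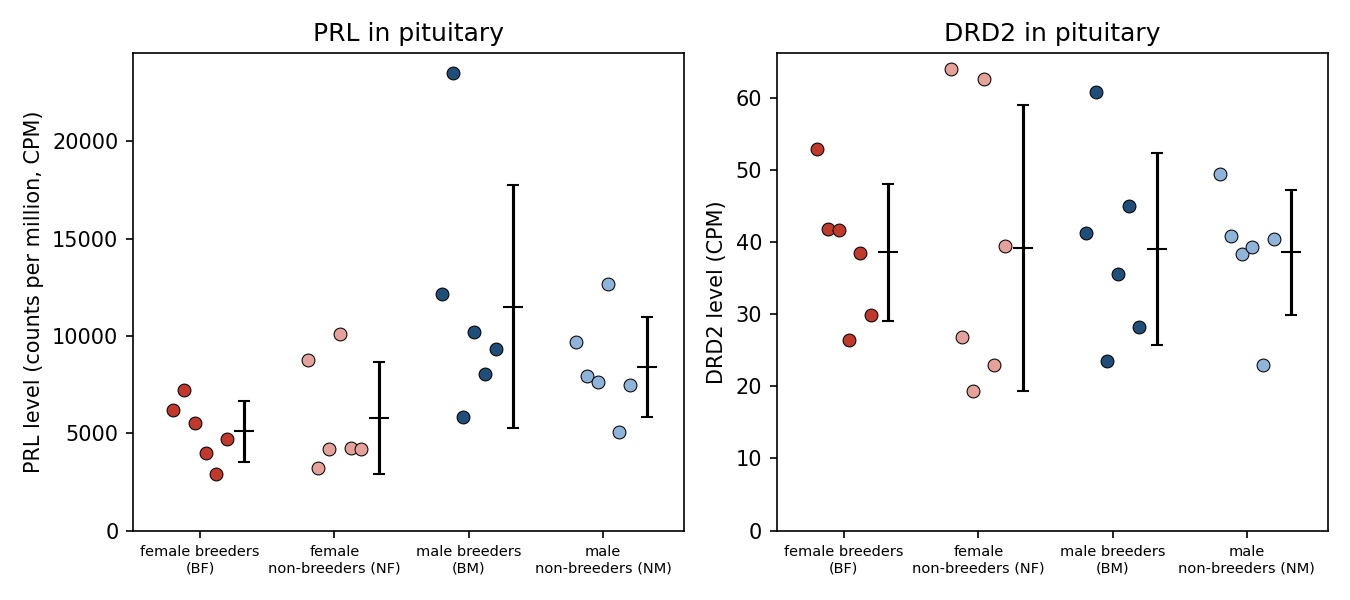
PRL (left) and DRD2 (right) in pituitary, in counts per megaread of the scaled library (CPM), 1 point per animal, with the mean and SD of the 6 animals of each class beside the points. PRL of female breeders ends at 7206 CPM and that of male breeders starts at 5813 CPM, while DRD2 means lie between 38.5 and 39.1 CPM in all 4 classes.

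Breeding status asked whether taking up reproduction goes with another level of prolactin transcript. PRL differed between breeders and non-breeders by a log2 fold change of -0.17 ± 0.30 (SE) in females (edgeR quasi-likelihood test, Benjamini-Hochberg adjusted p = 0.793) and of 0.44 ± 0.29 in males (adjusted p = 0.552). Neither was larger than the spread between animals, and in these comparisons 0% of the 13753 and 0% of the 13751 genes tested were called, where called means an adjusted p below 0.01. The female difference changed sign, to 0.06, when NF_3439 was left out, and the male one ran from 0.11 without BM_1215 to 0.60. The interaction of status and sex was -0.61 ± 0.45 (adjusted p = 0.998, with 0% of 14061 genes called). Without NF_2969 and NF_3605 the female difference was -0.35 ± 0.34 and the interaction -0.79 ± 0.47, neither of them called. At an unadjusted p under 0.05 edgeR had 1522, 1590 and 724 genes in these 3 tests, PRL and DRD2 not among them, and DESeq2 called 73, 17 and 7.

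Between the sexes PRL was lower in female than in male breeders by a log2 fold change of -1.18 ± 0.32, with an unadjusted p of 0.00279 and an adjusted p of 0.190 in edgeR. The gene thus missed the threshold in a comparison in which 0.101% of 13804 genes were called. On the log2(CPM + 0.5) scale an exact two-sided permutation test of the 6 against 6 libraries gave p = 0.00649. The smallest p such a design allows is 0.00216. Adjusted by Benjamini-Hochberg over all exact tests run, this permutation p was 0.136, above the threshold. Of the female breeders, 4 of 6 lay below every male breeder. The fold change fell to -0.84 without BM_1215 and reached -1.31 without BM_1400. Among non-breeders the difference had the same sign and was smaller, at -0.56 ± 0.30 (adjusted p = 0.929, with 0.00729% of 13712 genes called), and without NF_2969 and NF_3605 it was -0.38 ± 0.32. Pooled over status, a fit added after the values were seen, females were lower by -0.86 ± 0.22 (unadjusted p = 0.00078, adjusted p = 0.174, with 0.142% of 14061 genes called). DESeq2 gave the pooled difference an adjusted p of 0.0287, also above the threshold of 0.01. Without NF_2969 and NF_3605 it was -0.77 with an adjusted p of 0.207. The like fit of all breeders against all non-breeders gave 0.14 ± 0.22 (adjusted p = 0.718, with 0.0356% called).

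GH1, the sister hormone of prolactin from the same cell lineage, gives a measure that does not depend on the scaling of the library. Female breeders had between 1.53 and 4.00 PRL reads per 100 GH1 reads, with a median of 2.32, and female non-breeders between 0.84 and 6.30 with a median of 2.25. Male breeders had between 3.89 and 16.2 with a median of 6.03, and male non-breeders between 2.58 and 9.35 with a median of 4.11. The medians had the same order as those of PRL in CPM. Without NF_2969 and NF_3605, whose ratios were 0.97 and 0.84, female non-breeders ran from 1.61 to 6.30 with a median of 4.00, near that of male non-breeders and no longer near that of female breeders. Female and male breeders overlapped only between 3.89 and 4.00. The highest ratio, 16.2, came from BM_1147, whose GH1 level of 74889 CPM was the lowest of all pituitaries.

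Markers of the intermediate lobe varied widely between pituitaries and their medians were higher in female than in male breeders. PCSK2, the convertase that cuts melanotropin out of its precursor, ran from 78.2 to 274 CPM in female breeders and from 4.32 to 260 CPM in male breeders, with medians of 135 and 61.7. PAX7, which specifies melanotrophs in mice, ran from 2.81 to 11.0 CPM in female and from 0.0687 to 12.4 CPM in male breeders. BM_1215, with the highest PRL, had the lowest PCSK2 and PAX7 of all 24. Summed over the 4 measured melanotroph markers of 5 listed, of which the melanotropin precursor POMC is the bulk, the range was 3748 to 8448 CPM in BF, 3051 to 5489 in NF, 2807 to 8209 in BM and 2262 to 6234 in NM. POMC is also a listed marker of corticotrophs, another pituitary cell type, whose sum was 3739 to 8334 CPM in BF. The sum therefore does not single out the intermediate lobe, and BM_1215 had 4305 CPM of POMC. The part of these markers in the PRL difference was not tested.

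DRD2 stood at the same mean level in the pituitary of all 4 classes. The 260 to 1226 reads a library gave 26.5 to 52.9 CPM in BF (median 40.1, mean 38.5 ± 9.46), 19.3 to 63.9 in NF (33.1, 39.1 ± 19.9), 23.5 to 60.8 in BM (38.4, 39.0 ± 13.3) and 23.0 to 49.5 in NM (39.8, 38.5 ± 8.61). All 4 groups overlapped along most of their range. The log2 fold changes were -0.01 ± 0.30 for female and 0.01 ± 0.21 for male breeders against non-breeders, and -0.01 ± 0.22 for breeding females against breeding males, with edgeR adjusted p-values of 0.993, 0.988 and 0.989. Female non-breeders were the widest group, with NF_0525 and NF_3439 at 63.9 and 62.5 CPM and the GH1-rich libraries NF_2969 and NF_3605 at 19.3 and 22.9 CPM. Without the latter pair the female status difference was -0.30 ± 0.25 and the difference between non-breeding females and males 0.30 ± 0.24, neither of them called.

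Although DRD2 means did not move with class, DRD2 and PRL rose and fell together from animal to animal. Over the 24 pituitaries log2(CPM + 0.5) of PRL and DRD2 had a Pearson r of 0.603 (permutation p = 0.0018, adjusted over the 4 relations tested p = 0.0072) and a Spearman rho of 0.563 (p = 0.00508, adjusted p = 0.0203). Taken as deviations from the class means, r was 0.767 and rho 0.692, where the p of r was 1e-05, the smallest that the 100000 permutations can give. Within a class r was 0.50 in BF, 0.854 in NF, 0.832 in BM and 0.743 in NM, positive in each group of 6. Without NF_2969 and NF_3605 r was 0.549 (adjusted p = 0.0313) and rho 0.497 (adjusted p = 0.0798). As deviations without them, r was 0.800 and rho 0.793. Without the 2 animals farthest from the median of PRL r was 0.611 (adjusted p = 0.0119). Both genes belong to the lactotroph markers and come from the same library, and the part of lactotroph content in the relation was not tested.

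**Figure D2:**
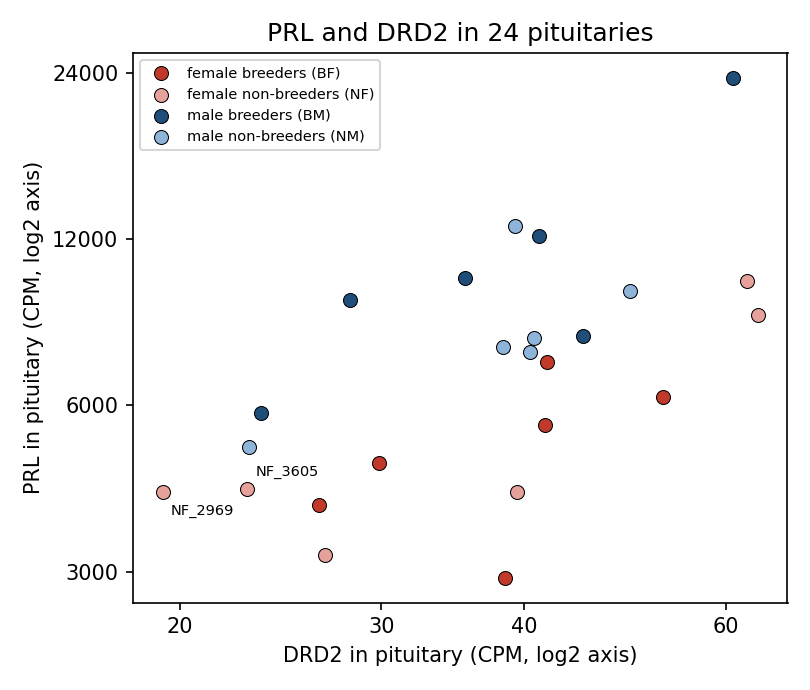
PRL against DRD2 in the 24 pituitaries, both in CPM on log2 axes, 1 point per animal, coloured by class, with the libraries NF_2969 and NF_3605 named. The points rise from lower left to upper right (r = 0.603), and BM_1215 lies highest in PRL.

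Other relations across the animals were weaker. PRL and GH1 had an r of -0.315 (permutation p = 0.134, adjusted p = 0.196), DRD2 and POMC an r of 0.208 (adjusted p = 0.328), and tyrosine hydroxylase (TH) of the hypothalamus and PRL of the pituitary of the same animal an r of 0.306 (adjusted p = 0.196). TH makes the rate-limiting step of dopamine synthesis. Without the animals of the hypothalamus libraries NF_0525 and NM_1449, the richest in GH1 reads, the last r was 0.301. Other hypothalamus libraries also held pituitary transcripts, such as NF_3605 with 1282 GH1 reads and BF_1816 with 821.

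As a description over the 24 pituitary libraries, each gene was correlated with PRL after the class means were taken off, among 11469 genes that averaged 5 CPM or more. The libraries share their depth and their cell mixture across all genes. The most PRL-like genes were LIX1 (r = 0.906), the docking protein DOK5 (r = 0.852) and the calcitonin receptor CALCR (r = 0.837). DRD2 ranked 12 of 11468 with r = 0.767, POU1F1 ranked 66 with r = 0.642, and GH1 ranked 8042 with r = -0.119. CALCR ran from 1.09 to 7.05 CPM in female breeders and from 1.52 to 25.3 CPM in male breeders, with BM values again the most spread. LIX1 ranged from 3.50 to 5.90 CPM in BF, 4.31 to 13.4 in NF, 4.64 to 13.7 in BM and 5.92 to 12.3 in NM.

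Of the genes around prolactin, 8 lists with 100 entries were examined in pituitary. In each of the 4 pairwise comparisons 77 entries were tested, and 1 gene was called, in female against male breeders, where 0.101% of 13804 genes were called. At an unadjusted p under 0.05 there were 12 of the 77 for breeding status in females, 10 for status in males, 13 for sex among breeders and 2 for sex among non-breeders, beside 11.1%, 11.6%, 11.5% and 3.50% of all genes tested. The gene called was monoamine oxidase B (MAOB), a mitochondrial outer membrane enzyme that breaks down dopamine, and it was low in breeding females. MAOB ran from 3.52 to 9.23 CPM in female breeders (median 5.55, mean 6.23 ± 2.29) and from 11.1 to 26.2 CPM in female non-breeders (17.7, 17.9 ± 4.92). It ran from 15.3 to 28.2 CPM in male breeders (22.4, 22.1 ± 5.06) and from 14.2 to 27.5 CPM in male non-breeders (20.5, 20.6 ± 5.78). Every female breeder lay below every other animal, and the other 3 classes overlapped. How many other genes separated the classes in this way was not counted.

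MAOB was lower in female than in male breeders by a log2 fold change of -1.82 ± 0.22 (edgeR adjusted p = 0.00202), and it stayed called with each of the 12 libraries left out in turn (adjusted p 0.00136 to 0.00968). Female breeders were below female non-breeders by -1.51 ± 0.26, which did not pass in edgeR (adjusted p = 0.105) and did in DESeq2 (adjusted p = 1.43e-05). In males the status difference was 0.09 ± 0.19 (adjusted p = 0.869), and the interaction of status and sex was -1.60 ± 0.33 (adjusted p = 0.152 in edgeR, 0.00384 in DESeq2). Among non-breeders the sexes differed by -0.21 ± 0.23 (adjusted p = 0.936).

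**Figure D3:**
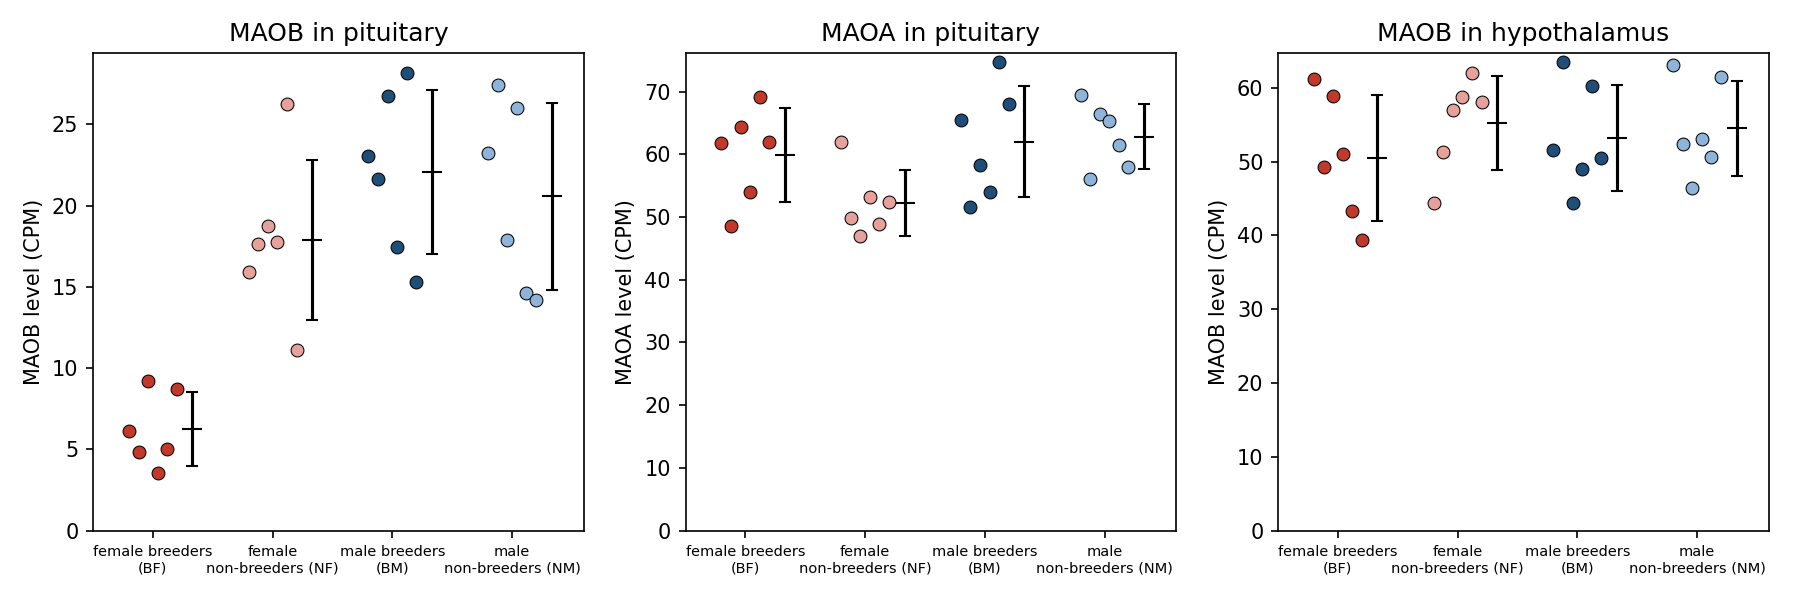
MAOB in pituitary (left), MAOA in pituitary (middle) and MAOB in hypothalamus (right), in CPM, 1 point per animal, with mean and SD of the 6 animals of each class. MAOB of the 6 female breeders ends at 9.23 CPM in pituitary, below the 11.1 CPM at which the other classes start, while the classes overlap in the other panels.

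The related enzyme MAOA, which also degrades dopamine, had class means between 52.2 and 62.8 CPM in pituitary and no called difference. In hypothalamus MAOB had class means between 50.5 and 55.2 CPM, with log2 differences of -0.02 ± 0.08 between all females and all males (with 0.0712% of 14040 genes called) and -0.09 ± 0.08 between all breeders and all non-breeders (0%). Neuronal transcripts in pituitary also had their lowest median, 421 CPM, in breeding females. The 7 listed neuronal markers summed to 397 to 447 CPM in BF, 449 to 582 in NF, 423 to 551 in BM and 422 to 597 in NM. Most of that sum is SNAP25, a vesicle fusion protein that endocrine cells use too, while AVP and OXT, the hormones of the posterior lobe fibres, had their highest class medians, 8.19 and 5.18 CPM, in BF. Their part in the MAOB difference was not tested.

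Several of the remaining dopamine genes were barely present in pituitary. Over the 24 pituitaries TH had 17 reads in all, the dopamine transporter SLC6A3 73 and the receptor DRD5 2. DRD1, DRD3 and DRD4 had 190, 35 and 188 reads against 13734 of DRD2, too few to compare classes with any precision. DDC, which makes dopamine from its precursor, had medians of 1.5 CPM in BF, 1.41 in NF, 2.02 in BM and 2.91 in NM, and the vesicular transporter SLC18A2 2.27, 1.80, 3.24 and 1.80. The classes overlapped in both genes.

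The dopamine synthesis and transport list had 7 of 13 genes tested, and MAOB alone was called. At an unadjusted p under 0.05 there were 4, 1, 4 and 1 of the 7 for status in females and males and for sex among breeders and non-breeders, beside the same 11.1%, 11.6%, 11.5% and 3.50% of all genes. The 4 were MAOB below and 3 genes above in breeding females, in either comparison. GCH1 and NR4A2 were among the 3 both times, and these genes are named after their values were seen. GCH1, which makes the cofactor of tyrosine hydroxylase, ran from 5.50 to 12.1 CPM in BF (median 9.13) and had medians of 5.32 CPM in NF, 5.29 in BM and 4.79 in NM, in ranges that overlapped. Its log2 difference was 0.85 ± 0.28 for status in females and 0.66 ± 0.29 for sex among breeders (edgeR adjusted p = 0.368 and 0.392). NR4A2, a nuclear receptor of dopamine neurons that other cells also use, had medians of 75.9, 45.3, 52.6 and 58.9 CPM in the same order of classes, with differences of 0.82 ± 0.34 and 0.72 ± 0.31 (adjusted p = 0.427 and 0.410). MAOA was the other gene in the comparison of female groups, at 0.22 ± 0.10. The list median was 0.22 for status in females and 0.10 for sex among breeders, beside 0.00 over all genes in each. Without NF_2969 and NF_3605, 3 of the 7 were at an unadjusted p under 0.05 for status in females, with a median of 0.16, beside 16.9% of all genes.

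Transcription factors of the lactotroph did not pass the test in any of the 4 comparisons, with 0 of 12 tested called in each by edgeR. At an unadjusted p under 0.05 there were 0 in females and 1 in males for breeding status, and 2 among breeders and 0 among non-breeders for sex, beside 11.1%, 11.6%, 11.5% and 3.50% of all genes. POU1F1 medians were 217 CPM in BF, 217 in NF, 255 in BM and 230 in NM, in ranges that overlapped. ESR1 ran from 10.7 to 27.4 CPM in female breeders (median 15) and from 13.7 to 31.3 CPM in male breeders (26.4), a log2 difference of -0.55 with an unadjusted p of 0.0403 and an edgeR adjusted p of 0.404. The list median was -0.10 in female against male breeders, beside 0.00 over all genes tested.

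Receptors for the factors that stimulate prolactin were present in every pituitary at similar levels in the 4 classes. VIPR2, a receptor of vasoactive intestinal peptide, had medians between 25.2 and 27.8 CPM. TRHR, the receptor of thyrotropin-releasing hormone, had medians of 3.51 CPM in BF, 4.05 in NF, 4.89 in BM and 3.72 in NM, and the oxytocin receptor OXTR reached at most 2.95 CPM in any library. Of this list, 10 of 16 genes were tested and 0 were called in each of the 4 comparisons by edgeR, with 0, 2, 2 and 0 at an unadjusted p under 0.05, beside the shares of all genes just given. D2 receptor coupling, with inhibitory G proteins, potassium channels and regulators of their signal, had 14 of 16 genes tested and 0 called, with 5, 1, 1 and 1 at an unadjusted p under 0.05 in the same order of comparisons. The 5 for status in females, 2 higher and 3 lower, stand beside 11.1% of all genes, and without NF_2969 and NF_3605 there were 4, beside 16.9%. Its medians were -0.10 in females and -0.01 in males for breeders against non-breeders.

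The genes through which the prolactin receptor signals were measured although the receptor itself was not. JAK2, the kinase bound to the receptor, had medians of 49.9 CPM in BF, 56.6 in NF, 52.1 in BM and 52.3 in NM, and STAT5B, the transcription factor it phosphorylates, 33.0, 33.8, 32.5 and 29.9. STAT5A was lower, with medians between 2.17 and 2.88 CPM. Among the feedback inhibitors CISH had medians between 10.2 and 10.9 CPM and SOCS2 between 36.4 and 40.2. SOCS3 ran from 7.43 to 50.4 CPM in female breeders (median 11.4) and from 3.95 to 11.9 CPM in female non-breeders (7.51), with 1 animal far above the rest. Its log2 difference between these groups was 1.17 (unadjusted p 0.0229, adjusted p 0.412 in edgeR), and 0 of the 16 genes of the list were called in any of the 4 comparisons, with 1, 3, 2 and 0 at an unadjusted p under 0.05, beside 11.1%, 11.6%, 11.5% and 3.50% of all genes. Without NF_2969 and NF_3605 the last count was 4, all higher in non-breeding females, beside 13.0% of all genes.

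Over all tissues PRL was a pituitary transcript and DRD2 a transcript of pituitary, brain and testis. For these levels all libraries were scaled together. DRD2 averaged 36.5 ± 12 CPM in pituitary, 9.23 ± 2.25 in hypothalamus, 3.46 ± 2.08 in testis (n = 12), 2.37 ± 0.570 in cerebellum (n = 22), 0.484 ± 0.259 in adrenal and 0.116 ± 0.108 in ovary (n = 11), with 24 libraries where no number is given. Thyroid, skin and kidney followed at 0.0437, 0.0149 and 0.00336 CPM. In heart DRD2 had 0 reads of 314625157 counts in 24 libraries, which allows a level of up to 0.00954 CPM over all of them, counting error only. Under this scaling pituitary exceeded hypothalamus in each of the 24 animals' tissues, as the lowest pituitary value was 17.8 CPM and the highest hypothalamus value 15.4 CPM. With plain library totals the ranges overlapped. The lowest pituitary value was then 3.93 and the highest hypothalamus value 4.23 as log2(CPM + 0.5).

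Neighbours in this order were compared by permutation tests on log2(CPM + 0.5), 18 pairs for both genes, with p-values adjusted over the pairs. DRD2 in pituitary was above hypothalamus by 1.89, hypothalamus above testis by 1.5 and cerebellum above adrenal by 1.56 on the log2 scale (each permutation p = 2e-05, the smallest possible, adjusted p = 7.2e-05), and adrenal was above ovary by 0.65 (adjusted p = 0.00012). Testis and cerebellum did not differ beyond their spread (0.26, adjusted p = 0.323), and neither did ovary and thyroid (adjusted p = 0.0606) or the tissues below. With each animal as a replicate block, the same number of neighbouring pairs, 4, passed for DRD2.

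**Figure D4:**
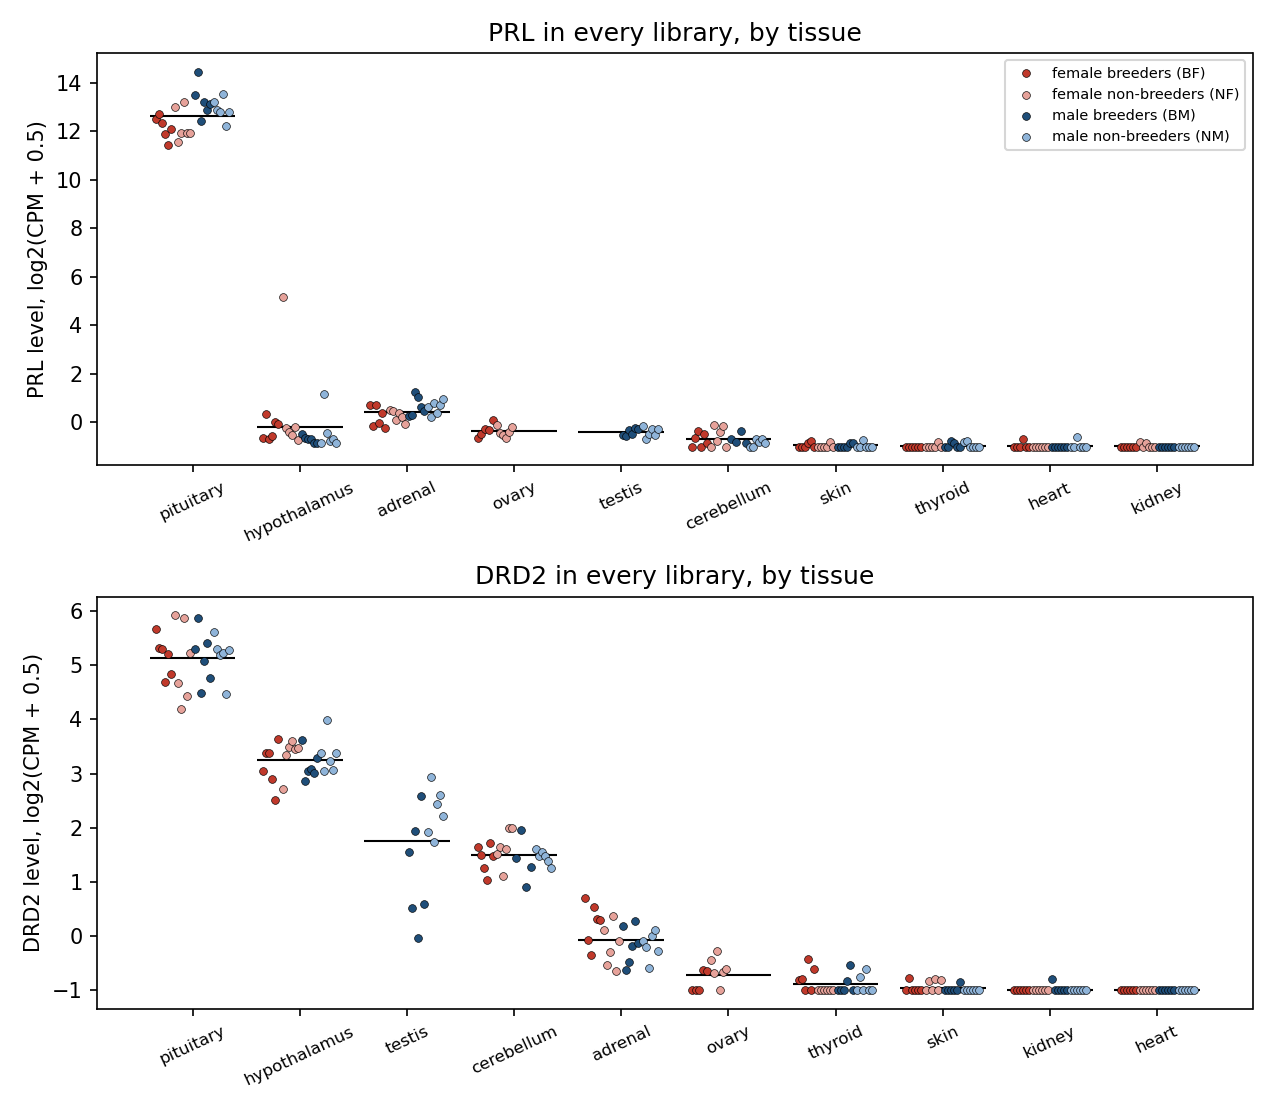
PRL (top) and DRD2 (bottom) in every library, by tissue in order of the mean CPM, on a log2(CPM + 0.5) scale that ends at -1 for a library without reads, coloured by class, with a line at the tissue mean of the log2 values. PRL is at 11.4 or above in all pituitaries and at most 1.23 elsewhere except in hypothalamus NF_0525 at 5.15, while DRD2 falls stepwise from pituitary to adrenal.

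PRL averaged 7255 ± 4151 CPM in pituitary and at most 1.73 CPM elsewhere. In hypothalamus the mean of 1.73 CPM came from a single library, since the median was 0.160 CPM. Adrenal had 0.906 ± 0.378 CPM, ovary 0.291 ± 0.130, testis 0.264 ± 0.0872 and cerebellum 0.126 ± 0.132. Skin, thyroid, heart and kidney were at 0.0177 CPM or lower, with 7, 5, 2 and 2 reads over all their libraries. By median, adrenal and not hypothalamus came next to pituitary. The log2 mean of adrenal was above that of hypothalamus by 0.65, with an adjusted p of 0.011 just above the threshold, and above that of ovary by 0.80 (adjusted p = 7.2e-05).

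The PRL reads outside the pituitary were set beside those of GH1, which exceeds PRL in every pituitary. Hypothalamus as a whole held 611 PRL and 24835 GH1 reads, or 2.46 PRL per 100 GH1 reads, beside 3.92 in the pituitary libraries. This ratio rests on NF_0525, which alone had 509 PRL and 14091 GH1 reads, while NM_1449 had 26 and 6920. Without NF_0525 the other 23 libraries held 102 PRL and 10744 GH1 reads, or 0.949 per 100, with 1 to 26 PRL reads a library and a median of 2. In 5 hypothalamus libraries, which held 1 to 4 PRL reads and at most 1 GH1 read, PRL outnumbered GH1. Adrenal held 347 PRL reads, 6 to 34 in each of the 24 libraries, and 118 GH1 reads, of which 117 were in NM_4925. In 23 of 24 adrenals PRL reads outnumbered GH1 reads. Ovary had 59 PRL and 0 GH1 reads in 11 libraries, and testis 62 PRL and 5 GH1 reads in 12 libraries, with 2 to 12 PRL reads in each ovary and 3 to 9 in each testis.

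**Figure D5:**
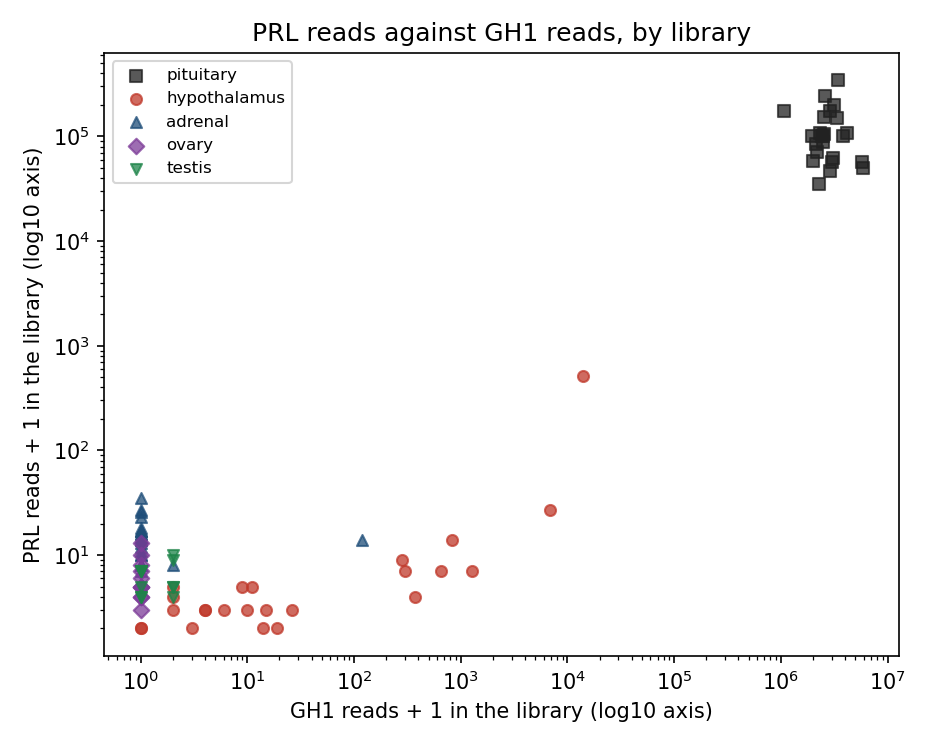
PRL reads against GH1 reads, each plus 1, in every library of 5 tissues on log10 axes. Hypothalamus libraries with many GH1 reads, led by the one with 14091, run toward the pituitary libraries, while adrenal, ovary and testis libraries hold 2 to 34 PRL reads with at most 1 GH1 read, except the adrenal library with 117.

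In adrenal, PRL was again lower in females. It had 0.793 ± 0.407 CPM in BF, 0.792 ± 0.216 in NF, 1.26 ± 0.523 in BM and 1.18 ± 0.312 in NM. The log2 difference was -0.73 ± 0.37 between female and male breeders (edgeR adjusted p = 0.265, with 0.429% of 13049 genes called) and -0.58 ± 0.26 between non-breeders (adjusted p = 0.306, with 0.023% of 13061 called). Pooled over status it was -0.65 ± 0.23 (unadjusted p = 0.00809, adjusted p = 0.0561, with 2.68% of 13374 called), which did not pass the threshold. Breeders and non-breeders differed by -0.05 ± 0.35 in females and 0.10 ± 0.28 in males, in comparisons with 0% of genes called by edgeR. The study's own DESeq2 tests found genes that differed by status in the adrenal of both sexes. These rest on 6 to 34 reads a library, from the same animals as the pituitary values.

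DRD2 in hypothalamus, where it is carried by dopamine neurons and their targets, lay between 6.27 and 14.7 CPM in BF (median 10.6, mean 10.4 ± 3.02), 7.28 and 14 in NF (12.6, 11.8 ± 2.36), 8.21 and 14.1 in BM (9.59, 10.3 ± 2.11) and 9.34 and 18.9 in NM (11.3, 12.1 ± 3.52). The groups overlapped. Breeders were at -0.18 ± 0.20 in females and -0.22 ± 0.18 in males, with an adjusted p of 0.998 or above and 0% of genes called (312 and 201 genes at an unadjusted p under 0.05, and 2 and 0 called by DESeq2), and the sex differences were 0.01 ± 0.19 and -0.03 ± 0.18, with 0.0434% of genes called in each. In the same libraries TH had medians of 3.98 CPM in BF, 4.6 in NF, 3.61 in BM and 5.67 in NM. TH reached 18.1 CPM in a male breeder and 17.9 CPM in a male non-breeder, and DDC medians lay between 43.1 and 52.3 CPM. Of the 8 lists 0 genes were called in any of the 4 hypothalamus comparisons, with 1 of 76 and 1 of 74 entries at an unadjusted p under 0.05 for status in females and males, beside 2.26% and 1.46% of all genes.

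In testis DRD2 was lower in breeders than in non-breeders by a log2 fold change of -0.98 ± 0.47, which missed the threshold (edgeR unadjusted p = 0.0545, adjusted p = 0.143, with 0% of 14421 genes called, 5283 at an unadjusted p under 0.05 and 378 called by DESeq2). Breeding males ran from 0.646 to 6.98 CPM (median 2.23, mean 2.93 ± 2.41) and non-breeding males from 3.60 to 9.28 CPM (5.82, 5.96 ± 2.08). Of the breeders, 4 of 6 lay below every non-breeder, while BM_5982 with 6.98 CPM and BM_1400 with 4.27 CPM lay among them. The library scaling factors (TMM) of BM_1215, BM_3274 and BM_6656 were 0.849 to 0.879, against 1.01 to 1.12 in all other testis libraries. The part of this split in the testis differences was not tested. An exact permutation test, two-sided, gave p = 0.039 for 6 against 6, and 0.273 when adjusted over all exact tests run. Leaving out 1 library moved the fold change between -1.46 and -0.81. Pituitary DRD2 of the same males did not differ by status, as given above.

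Cerebellum held DRD2 at 2.59 ± 0.532 CPM in BF, 3.09 ± 0.801 in NF, 2.57 ± 0.982 in BM (n = 4) and 2.60 ± 0.285 in NM. No difference was called, in comparisons with 0%, 0%, 0.044% and 0.0519% of genes called by edgeR. The study's own DESeq2 tests found genes that differed by status in female cerebellum. The cerebellum library of BM_5982, which the study left out, had 133 DRD2 reads against 15 to 51 in the 22 libraries used. Adrenal DRD2 rested on 2 to 15 reads a library, with 0.797 ± 0.356 CPM in BF and 0.441 to 0.464 CPM as means of the other classes, and its log2 difference between female and male breeders was 0.73 ± 0.40 (adjusted p = 0.308 in edgeR).

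Across the 10 tissues the genes most like DRD2, by Pearson r of the tissue means of log2(CPM + 0.5) among 14360 genes, were SLC17A8 (r = 0.979), the vesicular glutamate transporter VGLUT3, and REC8 (r = 0.973), a meiotic cohesin subunit, beside a gene whose symbol had been turned into a calendar date in the table (r = 0.980). SLC17A8 averaged 23.4 CPM in pituitary, 8.33 in hypothalamus and 1.73 in testis, and at most 0.483 CPM outside pituitary, brain and testis. REC8 averaged 335 CPM in pituitary, 50.1 in hypothalamus and 40.2 in testis. With 10 tissue means this describes a tissue pattern only.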

How the data were processed

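The deposited table holds the authors' read counts per gene, whole numbers that were not normalized, for 215 naked mole-rat libraries. According to the study's methods and the processing notes, the authors aligned single-end reads with STAR 2.4.1d, discarded reads with several loci and counted with HTSeq. The kit marks no strand, so overlapping antisense genes cannot be told apart. As in the study, cerebellum BM_5982 and ovary BF_1816 were left out, which leaves 213 libraries, and cerebellum of BM_3274 was not among the samples used. PRLR, GHR, liver and the guinea pig samples are not analysed here.

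The pair of groups of each comparison entered a fit of its own, run under R 4.3.3 by edgeR 4.0.16 with filterByExpr, TMM scaling and the robust quasi-likelihood F-test, after a check on simulated data. P-values were adjusted by Benjamini-Hochberg over all genes tested, and a gene was called at an adjusted p below 0.01, the study's threshold. DESeq2 1.42.0 and limma-voom (limma 3.58.1) were alternatives. Log2 fold changes are given with SE, levels as mean ± SD, in CPM of the scaled library. Permutation tests (scipy 1.17.1) were exact between classes, and between tissues where the possible relabellings were fewer than 100000. Otherwise 100000 resamples were used. All were two-sided. Each animal gave all its tissues and each class of animals enters several comparisons, so results are not independent, and the comparisons of a tissue share their libraries. Litter, colony and mate entered no test. The members, the gene lists and the tests were chosen with earlier results of these data known, and the pooled fits, the MAOB alternatives, and the list counts and PRL to GH1 ratios without single libraries were added after values were seen. Genes were named by a rule (the members, fixed regulators, the 3 most alike genes, and list genes called in pituitary or hypothalamus), and AVP, OXT, SNAP25 and CGA as markers. GCH1 and NR4A2 fall outside this rule and were named after their values were seen. MAOA also falls outside it and was added beside MAOB. Relations that need PRLR were not run. A further gene of the lists is not reported here by name. RefSeq pairs PRL and DRD2 with gene identifiers 101696723 and 101711462 on another assembly, so no coordinates are given.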

Additional observations from a re-analysis of the deposited data

Results flagged for a closer look

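In 31 groups of 4 to 6 libraries the highest and the lowest value were set against the others by Dixon's criterion, which chance meets in about 1 in 20 groups, and 4 values met it. PRL in pituitary of male breeder BM_1215 was 23508 CPM, and the other 5 male breeders lay between 5813 and 12142 CPM. PRL reads in hypothalamus of female non-breeder NF_0525 numbered 509, and the others of the class had 2 to 6. The same library held 14091 GH1 and 3973 CGA reads. DRD2 in hypothalamus of NF_0525 was 7.28 CPM, and the other female non-breeders lay between 11.5 and 14 CPM. DRD2 in hypothalamus of male non-breeder NM_3295 was 18.9 CPM, and the other male non-breeders lay between 9.34 and 11.9 CPM.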

How the results depend on the processing

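Neither PRL nor DRD2 passed the threshold in any comparison of classes under any alternative run, so what varied there was size and sign. Between tissues, PRL of adrenal over hypothalamus passed with 0.1 CPM added before the log2 (permutation test, adjusted p = 0.00036). With 1 CPM added it did not (adjusted p = 0.0978). With limma-voom DRD2 in pituitary turned to 0.10 and -0.028 for status in females and males and to 0.030 and -0.090 for sex in breeders and non-breeders, and with no filter on low counts the last was -0.0050. Hypothalamus DRD2 of female against male breeders was -0.031 with limma-voom. Cerebellum DRD2 of male breeders against non-breeders was 0.0018 with DESeq2 and 0.59 with the left-out library of BM_5982, and that of female against male breeders was -0.0046 with all 4 groups in one fit and -0.60 with that library. Pooled over status, the DRD2 sex difference in pituitary turned to 0.15 without NF_2969 and NF_3605. The r of PRL and GH1 was -0.493 without the 2 animals farthest from the median, -0.510 with plain library totals (adjusted p = 0.0359 and 0.0229) and 0.049 as deviations without NF_2969 and NF_3605. The causes were not tested. Genes called in pituitary numbered 73 with DESeq2, 1 with limma-voom, 22 with all 4 groups in one fit and 1 without NF_2969 and NF_3605 for female status, 17 with DESeq2 for male status, 95 with DESeq2 for sex among breeders, 15, 7 and 4 with DESeq2, the joint fit and without those libraries for sex among non-breeders, and 7 with DESeq2 for the interaction.

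Leaving out each library in turn, PRL ran from -0.29 to 0.064 and from 0.11 to 0.60 for status in females and males, and from -1.31 to -0.84 and from -0.78 to -0.41 for sex in breeders and non-breeders. DRD2 ran from -0.15 to 0.19, from -0.16 to 0.12, from -0.13 to 0.16 and from -0.19 to 0.17 in the same order, and in cerebellum from -0.27 to 0.15 for male status and from -0.15 to 0.27 for sex among breeders. Genes called ran from 0 to 2, 0 to 1, 7 to 27 and 1 to 2. MAOB ran from -1.97 to -1.70 between female and male breeders and from -1.65 to -1.37 between female groups. With the animal as a replicate block, 4 neighbouring tissue pairs differed for PRL and 4 for DRD2, as without it, since all tissues of an animal share its number. The same pairs passed in both. Within 1 tissue no paired analysis was possible because the classes hold different animals. The tissue order and relations of PRLR could not be run.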

Other observations

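In the gonads the dopamine-degrading enzyme MAOA was higher in breeders of either sex without passing the threshold. In ovary it lay between 196 and 245 CPM in 5 breeders (mean 219 ± 20.2) and between 130 and 192 CPM in 6 non-breeders (160 ± 24.8), a log2 difference of 0.45 ± 0.11 (edgeR adjusted p = 0.0566, with 0.445% of 13717 genes called). The ovary groups did not overlap, and how many other genes did the same was not counted. In testis MAOA lay between 115 and 311 CPM in breeders (208 ± 75.2) and between 93.7 and 138 CPM in non-breeders (123 ± 15.2). The log2 difference was 0.76 ± 0.20 (edgeR adjusted p = 0.0681, with 0% of 14421 genes called). The highest MAOA values, 222, 276 and 311 CPM, were those of BM_1215, BM_6656 and BM_3274, the libraries with low scaling factors. MAOB did not follow MAOA. MAOB means in ovary were 7.78 CPM in breeders and 14.6 in non-breeders, while the medians were 1.52 and 1.75. In testis the means were 5.43 and 6.35 CPM. The ranges overlapped in both gonads. Of the prolactin receptor signalling list, 14 of 15 genes tested in testis had a positive log2 difference, with a median of 0.25 beside 0.02 over all genes, of which 52.4% were positive. In ovary 5 of its 16 genes were positive, with a median of -0.14 beside -0.02 over all genes, of which 45.9% were positive. By edgeR 0 genes of the list were called in either gonad, with 6 in testis and 6 in ovary at an unadjusted p under 0.05, beside 36.6% and 15.9% of all genes.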
